A study of Homo sapiens with 7 samples.

Results

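Rab GTPases were examined in HCT116 cells, an established human colon carcinoma line with a near-diploid karyotype, here in its derivative that expresses the histone fusion H2B-GFP. The members were 42 Rab genes chosen by symbol, of 36337 gene names on the array, and all 42 were found, with 50 probes printed as 59 spots. Gene expression was measured by single-colour (Cy3) Agilent arrays in 4 replicate cultures that received 10 nM bafilomycin A1 for 30 h. Bafilomycin A1 inhibits the vacuolar proton pump and so blocks the acidification of lysosomes and other compartments. Treated and untreated samples of the series alike carry the H2B-GFP fusion, and both were grown in DMEM with serum. The 3 untreated samples of the same line were not analysed here, so the values below describe the treated cells and give no effect of the drug.

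Rab proteins are small GTPases that mark the membranes of the secretory and endocytic pathways. Exchange factors load them with GTP on a given membrane, where they recruit effectors such as tethers, motors and sorting complexes, and GTPase-activating proteins return them to the GDP form. They are held on membranes by prenyl groups that the Rab geranylgeranyl transferase adds to them together with the Rab escort proteins, and GDP dissociation inhibitors extract them for a new cycle. Many members act in all cells, while the RAB3 and RAB27 groups drive regulated exocytosis and RAB17, RAB25 and others are found mainly in epithelia.

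The signal of a gene depends on the 60-base probes that read it, so the probes behind the main results are shown first. Coordinates are those of GRCh37 in the array design, and no annotation of that build was used, so the exon or UTR position of a probe was not assigned. A probe whose coordinates cover more than 60 bases crosses an exon junction, which held for 6 of the 50 probes (those of RAB4A, RAB4B, RAB5C, RAB11B and RAB13, and 1 of the 2 probes of RAB17). The first pair reads conserved parts of the GTP-binding domain. The RAB34 probe (chr17:27042660-27042719, minus strand) opens with the codons of a conserved stretch of switch II, in capitals. The RAB1B probe at base 509 of its transcript (chr11:66043518-66043577, plus strand) holds the codons of a guanine-binding stretch, also in capitals.
RAB34: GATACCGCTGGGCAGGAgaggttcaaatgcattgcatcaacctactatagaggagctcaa
RAB1B: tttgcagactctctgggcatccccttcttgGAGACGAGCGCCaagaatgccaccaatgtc
The first stretch was searched as GANACNGCNGGNCANGA on the printed strand and occurred in 1 of the 50599 probes of the array. The second was searched as GANACNNNNGCN, occurred in 0.994% of all probes and, among the Rab probes, also in those of RAB17 and RAB2A.

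The next pair shows the probes of paralogs. The RAB4A probe (chr1:229434766-229438614, plus strand) and the RAB4B probe (chr19:41292642-41292788, plus strand) overlap by 30 bases in the best ungapped alignment, of which 22 are identical and given in capitals.
RAB4A: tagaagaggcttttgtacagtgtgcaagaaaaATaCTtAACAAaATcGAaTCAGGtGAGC
RAB4B: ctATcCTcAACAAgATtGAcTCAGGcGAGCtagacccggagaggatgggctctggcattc
Over all 50 Rab probes, 3 shared a run of 16 bases or more with a probe of another gene name, and none of these was another Rab gene (0 Rab pairs). Probes were compared with probes and not with transcripts, so binding of a probe to the transcript of a paralog was not examined.

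The last set shows probes that differ in base composition, with G and C in capitals. These are the junction probe of RAB17 (chr2:238484070-238485905, minus strand), the first 30 bases of its second probe (chr2:238482973-238483032), the RAB32 probe (chr6:146875650-146875709, plus strand), and the first 30 bases of the probes of RAB33B (chr4:140396778-140396837, plus strand), RAB27A (chr15:55496525-55496584, minus strand) and RAB27B (chr18:52556632-52556691 and chr18:52562268-52562327, plus strand).
RAB17 junction probe: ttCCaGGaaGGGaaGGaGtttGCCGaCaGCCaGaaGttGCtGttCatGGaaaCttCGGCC
RAB17 second probe: GCCtGaGatataaGttGtaCtGCGtatGCa
RAB32: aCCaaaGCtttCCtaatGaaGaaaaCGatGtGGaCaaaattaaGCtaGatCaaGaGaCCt
RAB33B: ttttaaaGaaCaaatCaCaCatttaaaaaa
RAB27A: atGaaGtattCtGtaGCCtatatttttCat
RAB27B at base 887: atGtatCtGCtaGaCtCtaCataGaaaCtG
RAB27B at base 6523: CaaataGGGCttCtGtGtCCataGCCttGt
Over their full length the Rab probes held 20% to 55% G and C, with a median of 40%, against a median of 43.3% for all probes of the array. The 20% belonged to RAB33B, and the RAB17 probes held 53.3% and 35%.

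Most Rab genes were detected in the bafilomycin-treated cells. A gene counted as detected when at least 1 probe was well above background on each of the 4 arrays. This applied to 38 of the 42 members (90.5%), beside 52.5% of all gene names and 70.9% of the gene names listed as protein-coding. Of the ubiquitous Rabs 22 of 23 were detected, and of the secretory and epithelial Rabs together 9 of 10. The secretory Rabs were detected in 6 of 6 cases, the epithelial Rabs in 3 of 4 and the other members in 7 of 9. The fourth epithelial member, RAB25, which directs recycling to the apical surface, was well above background on the 3 arrays where its spot was kept. Its normalized log2 values there were 6.60 on replicate 1, 6.79 on replicate 3 and 6.48 on replicate 4. Its spot on replicate 2 was left out because of an outlier flag of the local background, although its own signal was 7232 scanner units over a background of 53.6. With such spots kept 39 of 42 members were detected, beside 54.2% of all gene names. Normalized values throughout are log2 background-subtracted signals minus the median of the array, and they compare a gene between arrays but not one gene with another.

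The other 3 members below the detection rule, beside RAB25, were RAB33B, RAB32 and RAB34. RAB33B, a Golgi Rab that also acts in autophagosome formation, gave background-subtracted signals of 2.80, 10.4, -0.80 and -0.19 scanner units on replicates 1 to 4. RAB32, which acts in the biogenesis of lysosome-related organelles such as melanosomes, gave 6.58, -1.25, 0.21 and -0.79. Both genes were well above background on 0 of 4 arrays, and the local background of the Rab spots ran from 44.7 to 61.6. RAB34, linked to lysosome positioning and ciliogenesis, gave 23.2, 18.1, 9.88 and 19.6 and was well above background on replicate 1 alone. Each of the 3 genes was read by 1 probe, shown above, so the values are those of single probes and a transcript that lacks the probed stretch would not be seen.

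**Figure D1:**
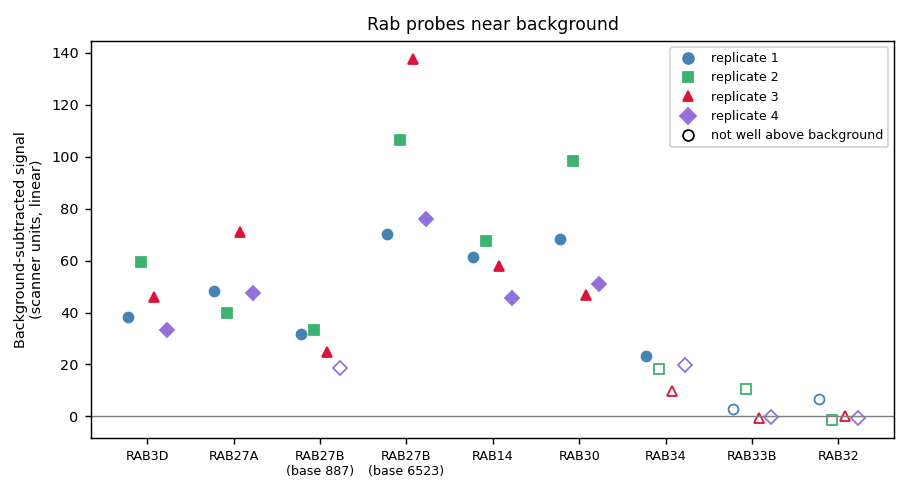
Background-subtracted signal in scanner units (linear axis) of 9 Rab probes near background, 1 symbol per array, filled where the spot was well above background. RAB32 and RAB33B lie between -1.25 and 10.4 with open symbols, RAB34 is filled on replicate 1 alone, and the RAB27B probe at base 887 is open on replicate 4.

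The secretory Rabs RAB27A and RAB27B, which dock secretory granules and exosome-bearing endosomes at the plasma membrane, were detected with signals of the same order as the local background. RAB27B had normalized values of -0.70, -0.24, -0.26 and -0.75 on replicates 1 to 4, and so was higher on replicates 2 and 3 than on replicates 1 and 4. Its probes did not behave alike. The probe at base 6523 gave 70.4, 106, 138 and 76.0 scanner units and was well above background on each array, with the highest signal on replicate 3. The probe at base 887 gave 31.8, 33.1, 24.8 and 18.7 and was well above background on 3 of 4 arrays, with the highest signal on replicate 2. The detection of RAB27B thus rested on 1 of its 2 probes, and under the rule that every probe must be detected it was not counted.

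RAB27A was read by 1 probe, with normalized values of -0.67, -0.81, 0.02 and -0.42. Replicate 3 was highest, and the SD was 0.36. RAB3A, the synaptic vesicle Rab that is also made in endocrine cells, had values of 3.48, 3.49, 4.02 and 3.55. Replicates 1, 2 and 4 lay close together while replicate 3 stood apart above them. RAB3B, a regulator of exocytosis in pituitary and epithelial cells, had values of 1.55, 1.94, 2.06 and 1.77. RAB3D, found on zymogen and other exocrine granules, had values of -1.01, -0.24, -0.61 and -0.94, with replicate 2 highest. RAB37, a Rab of mast cell and other secretory granules, had values of 3.11, 3.01, 3.34 and 3.00 and the smallest SD of the list (0.16).

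In the secretory list 5 of 6 genes, all but RAB37, spanned more than 1.4-fold between the lowest and the highest array, beside 46.4% of all detected genes. This count of the secretory list was 2 of 6 with the processed signal (RAB3D and RAB27A), 2 of 6 without replicate 3 (RAB3D and RAB27B) and 0 of 6 after normexp correction and quantile normalization, where the widest span was 1.32-fold. The fold limit is the size the study used for its own lists, but there it applied to ratios of aneuploid to diploid lines. Here it is applied to single replicate arrays of the same condition, which is another measure. The 4 members RAB3B, RAB3D, RAB27A and RAB27B had mean normalized values below 2, and of all detected genes with such dim signals 58.6% spanned more than 1.4-fold, against 24.7% of those with means of 5 or above. Over the whole set 14 of 38 detected members passed this limit (36.8%), 7 of 22 in the ubiquitous list, 0 of 3 in the epithelial list and 2 of 7 among the other members. Without replicate 3 the count was 5 of 38, after normexp correction and quantile normalization 6, and with outlier-flagged spots kept 12. For this count and that of the secretory list, the share over all detected genes under these settings was not computed. The lower counts are therefore not shown to be particular to Rab genes. The median SD over the 38 members was 0.19, beside 0.21 for all detected genes.

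No detected epithelial Rab (0 of 3) spanned more than 1.4-fold as a gene, although 1 of the 2 probes of RAB17 did (1.84-fold). RAB13, which serves tight junction traffic, had values of 4.62, 4.72, 4.93 and 4.58 with replicate 3 highest. RAB17, which acts in transcytosis and dendritic or apical recycling, had values of 4.49, 4.63, 4.27 and 4.31 with replicate 2 highest. RAB20, found on endosomes and phagosomes and linked to the proton pump, had values of 3.43, 3.47, 3.22 and 3.21, with replicates 1 and 2 above replicates 3 and 4. The SDs of the 3 genes were 0.14 to 0.17 (n = 4), and their lowest and highest arrays were 1.20-fold to 1.29-fold apart. The median SD over these 3 genes was 0.16, over the 6 secretory genes 0.27 and over the 22 ubiquitous genes 0.19, and these medians were not tested against each other. After normexp correction and quantile normalization the order changed, with medians of 0.16 for the epithelial, 0.13 for the secretory and 0.10 for the ubiquitous genes.

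**Figure D2:**
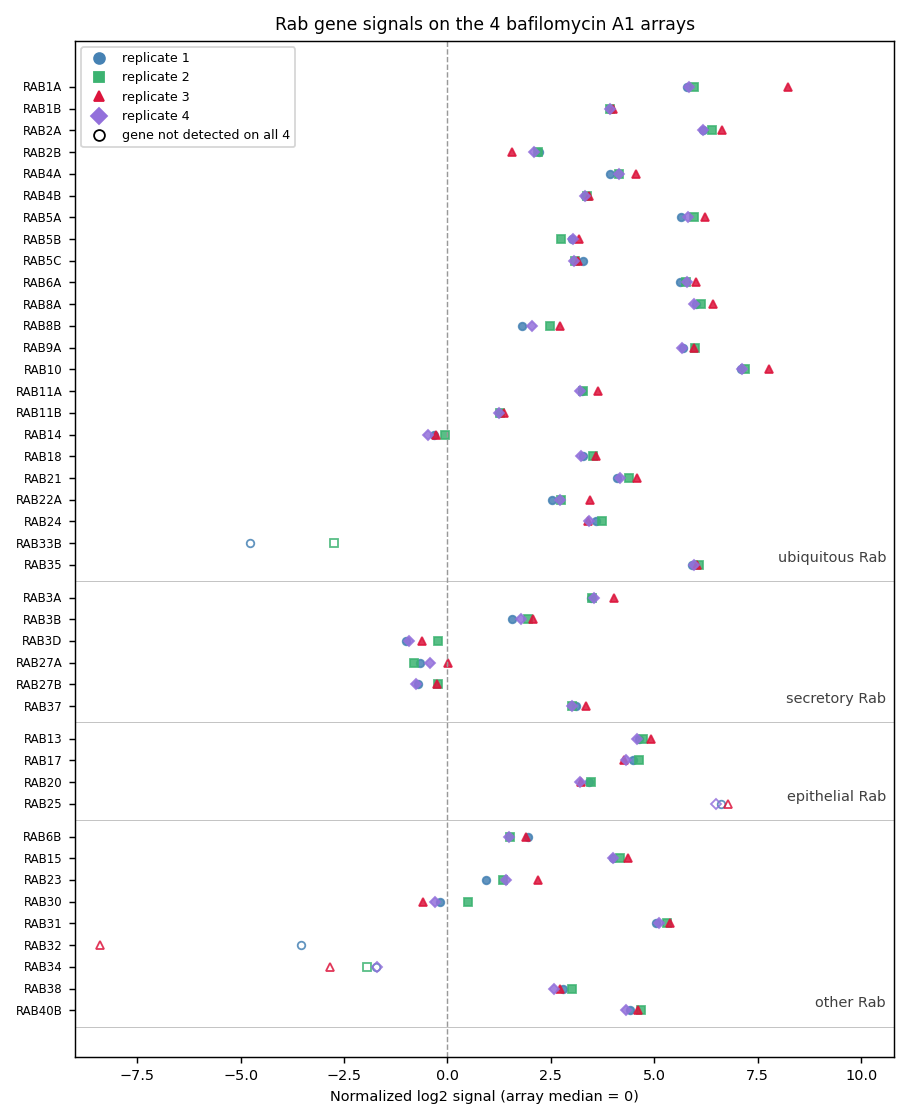
Normalized log2 signal (array median at 0) of the 42 Rab genes by list, 1 symbol per array, open where the gene was not detected on all 4 arrays. Signals at or below 0 (RAB32 and RAB33B) and the spot of RAB25 left out on replicate 2 have no symbol. Distances within a row compare arrays for 1 gene, and positions of different rows are not comparable because each gene has its own probe. RAB1A and RAB2B are the genes whose replicate 3 value rests on fewer probes.

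Among the ubiquitous Rabs, those of the early secretory pathway were detected on all arrays, apart from the Golgi Rab RAB33B described above. RAB1A and RAB1B regulate transport from the endoplasmic reticulum to the Golgi apparatus. RAB1A had values of 5.79, 5.96, 8.22 and 5.83, with replicate 3 far above the others. That value was read by 1 of the 2 probes, since the spot of the other carried a local background flag on replicate 3. With the flagged spot kept the values were 5.79, 5.95, 6.24 and 5.83, and the SD was 0.20 in place of 1.18. RAB1B had values of 3.93, 3.93, 3.99 and 3.94, the smallest SD of all 38 detected members (0.03). This small value arose as a mean of probes that each moved more, since the SD of the single probes was 0.12 and 0.13 and they deviated in the same direction on 1 of 4 arrays.

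RAB2A, which acts between the endoplasmic reticulum and the Golgi apparatus and in the fusion of late endosomes with lysosomes, had values of 6.17, 6.38, 6.63 and 6.17. RAB2B had values of 2.21, 2.18, 1.57 and 2.08, with replicate 3 lowest. Here again 1 of 2 probes was left out on replicates 2 and 3 because of its local background, and with the flagged spots kept the values were 2.21, 2.27, 2.14 and 2.09. RAB6A, the Rab of retrograde Golgi traffic, had values of 5.62, 5.77, 6.01 and 5.78. RAB18, which acts at the endoplasmic reticulum and on lipid droplets, had values of 3.28, 3.51, 3.60 and 3.23. In both genes replicate 3 was highest.

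The Rabs of exocytosis to the plasma membrane showed the same order of arrays in part. RAB10, which serves basolateral and insulin-regulated exocytosis, had values of 7.10, 7.18, 7.77 and 7.12, and replicate 3 stood apart. RAB8A had values of 6.00, 6.13, 6.41 and 5.96 and RAB8B values of 1.81, 2.47, 2.72 and 2.05, so that replicate 3 was highest and replicate 1 or 4 lowest in both. These paralogs support exocytosis and primary cilium formation. RAB35, a Rab of fast recycling and cytokinesis, had values of 5.92, 6.07, 6.02 and 5.96 and an SD of 0.07.

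Early endosomal Rabs were likewise detected on all 4 arrays. The RAB5 proteins drive the fusion of early endosomes. RAB5A had values of 5.65, 5.96, 6.22 and 5.82, RAB5B of 3.01, 2.74, 3.17 and 3.04, and RAB5C of 3.27, 3.09, 3.16 and 3.06. The highest array was replicate 3 for RAB5A and RAB5B and replicate 1 for RAB5C, and RAB5A alone of the 3 spanned more than 1.4-fold (1.48-fold). RAB5C was printed as 10 spots per array, of which 1 was left out as an outlier on replicates 1 and 3, and the SD between the kept spots of an array was 0.09 to 0.19 on the log2 scale. The SD between arrays, each the mean of 9 or 10 spots, was 0.09.

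RAB21, which carries integrins through early endosomes, had values of 4.10, 4.38, 4.58 and 4.18, with deviations in the same direction for its 2 probes on all 4 arrays. RAB22A, a Rab of sorting endosomes, had values of 2.53, 2.74, 3.43 and 2.71 with replicate 3 highest, and spanned 1.87-fold. RAB14, which acts between the Golgi apparatus and endosomes, had signals of 61.2, 67.4, 57.9 and 45.5 scanner units and normalized values of -0.33, -0.06, -0.28 and -0.48. Its single probe lies 4300 bases into the transcript, and its level is therefore a statement about that probe.

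Recycling Rabs came in paralog pairs that differed in their spread. RAB4A and RAB4B act in fast recycling from early endosomes. RAB4A had values of 3.92, 4.13, 4.55 and 4.15 (SD 0.27), while RAB4B had values of 3.32, 3.36, 3.43 and 3.32 (SD 0.05). RAB11A and RAB11B mark the recycling endosome. RAB11A had values of 3.25, 3.27, 3.63 and 3.19 (SD 0.20), and RAB11B of 1.24, 1.27, 1.37 and 1.25 (SD 0.06). In each of these 4 genes replicate 3 was highest. In both pairs the paralog with the larger spread had the probe with less G and C. The shares were 36.7% for RAB4A against 55% for RAB4B and 35% for RAB11A against 51.7% for RAB11B. Other paralogs went both ways. RAB8B, with 38.3%, had a larger SD than RAB8A, with 45% (0.41 against 0.21). RAB3B, with 40%, had a smaller SD than RAB3D, with 45% (0.22 against 0.35). The part of base composition in the spread was not tested.

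Of the late endosomal and degradative members, RAB9A, which returns mannose 6-phosphate receptors from late endosomes to the Golgi apparatus, had values of 5.69, 5.97, 5.97 and 5.66. RAB24, which has been linked to autophagy, had values of 3.59, 3.73, 3.40 and 3.41. Replicates 1 and 2 lay above replicates 3 and 4 for RAB24, and replicates 2 and 3 above 1 and 4 for RAB9A. RAB7A, the main late endosomal Rab, was not among the members chosen.

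Of the 9 other members 7 were detected, and RAB23 and RAB30 had the widest spans among them. RAB23, a negative regulator of Hedgehog signalling, had values of 0.92, 1.35, 2.18 and 1.42 and spanned 2.38-fold, from replicate 1 to replicate 3. RAB30, a Golgi Rab, had values of -0.17, 0.49, -0.59 and -0.31 and spanned 2.11-fold, with replicate 2 highest and replicate 3 lowest. RAB38, which with RAB32 serves melanosome biogenesis, was detected with values of 2.79, 3.02, 2.73 and 2.57. The remaining detected members RAB6B, RAB15, RAB31 and RAB40B spanned 1.27-fold to 1.38-fold.

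**Figure D3:**
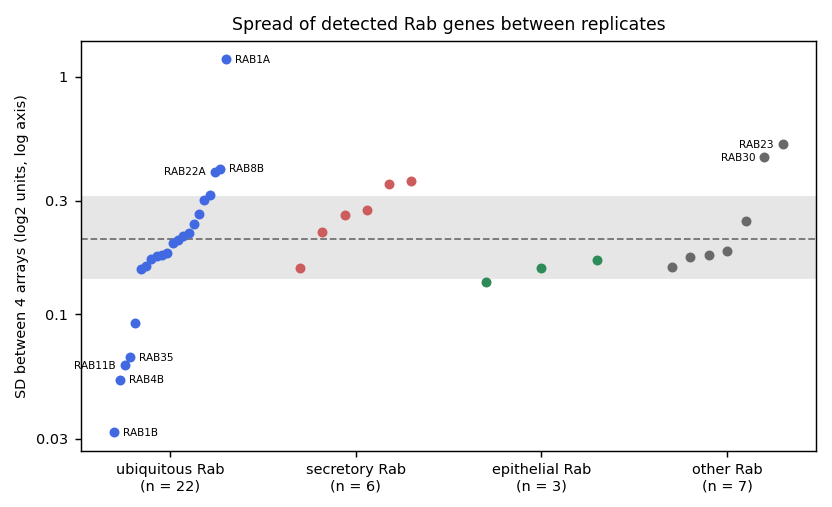
SD of the normalized log2 signal over the 4 arrays (log axis) for each of the 38 detected Rab genes by list, with the dashed line at the median of all 19083 detected genes (0.21) and the grey band from their 25th to their 75th percentile (0.14 to 0.31). The 3 epithelial genes lie between 0.14 and 0.17, and RAB1A lies at 1.18 because its replicate 3 value rests on 1 probe.

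The replicates differed in a way shared by many members. Replicate 3 gave the highest value in 24 of 38 detected members, beside 48.5% of all detected genes, and replicate 2 in 11, beside 25.3%. Replicate 1 gave it in 3 members, beside 20% of all genes, and replicate 4 in 0, beside 6.18%. The lowest value fell on replicate 1 in 18 members, beside 26.9% of all genes, and on replicate 4 in 14, beside 35.1%, while it fell on replicate 3 in 4, beside 23.2%, and on replicate 2 in 2, beside 14.8%. The median deviation of the members from their own mean was -0.12, 0.04, 0.20 and -0.13 on replicates 1 to 4, where that of all detected genes was -0.03, 0.03, 0.10 and -0.10. Protein-coding genes lay nearer to the members on replicates 1 and 3, with medians of -0.06, 0.04, 0.14 and -0.11. Of the 11803 detected protein-coding gene names, 6496 were highest on replicate 3 and 3717 lowest on replicate 1. With the software's processed signal scaled to the 75th percentile of each array the median deviation of the members on replicate 3 was 0.14, and after normexp correction and quantile normalization it was 0.06, beside 0.02 and 0.00 for all detected genes. By list the median deviation on replicate 3 with the array median as reference was 0.20 for the ubiquitous, 0.23 for the secretory, 0.17 for the other and -0.11 for the epithelial members. The epithelial median covers 3 genes and leaves out RAB25. With its flagged spot kept RAB25 had values of 6.60, 6.69, 6.79 and 6.48, highest on replicate 3 like RAB13, while RAB17 and RAB20 lay below their means there. The sign of the epithelial median thus rests on few genes.

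**Figure D4:**
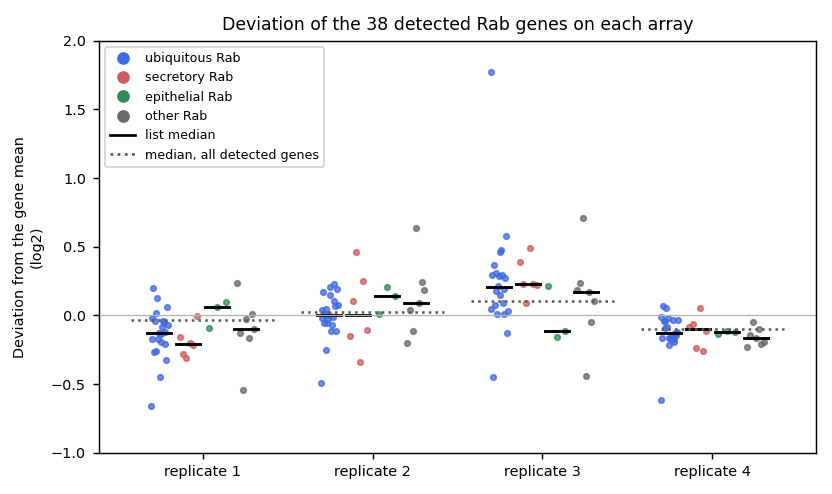
Deviation of each of the 38 detected Rab genes from its own mean over the 4 arrays (log2), by array and list, with list medians as black bars and the median of all 19083 detected genes as a dotted line. On replicate 3 the medians of the ubiquitous, secretory and other lists lie at 0.17 to 0.23 and that of the 3 epithelial genes at -0.11, and the point at the top of replicate 3 is RAB1A. The epithelial genes shown do not include RAB25, which with its flagged spot kept was highest on replicate 3.

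In 5 of 38 members (13.2%) 1 array lay apart, its gap to the nearest value being larger than Dixon's critical share of the range. The same held for 8.48% of all detected genes. These were RAB1A, RAB1B, RAB10, RAB11A and RAB3A, with replicate 3 highest in each, and replicate 3 stood apart in 5.37% of all detected genes. RAB1A rested on the change of probes described above. The count was 2 of 38 with the processed signal and 2 after normexp correction and quantile normalization. The share of all detected genes with 1 array apart was not computed under these settings. In RAB1B and RAB11A the gap lay at the limit, and in RAB1B the arrays spanned 1.05-fold.

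The size of the deviation on replicate 3 went with the base composition of the probes. Over the 43 Rab probes that were well above background on all 4 arrays, the share of G and C correlated with the deviation on replicate 3 at r = -0.49 (Spearman's rho = -0.56), and over all 24633 such probes of the array at r = -0.39 (rho = -0.44). The probes share their arrays and some share a gene, so these values are a description across probes. Of the 19 Rab probes with less than 40% G and C, 18 lay above 0 on replicate 3, with a median of 0.31. Of the 17 probes from 40% to below 50%, 14 lay above 0, with a median of 0.12, and of the 7 probes with 50% or more, 3 lay above 0, with a median of -0.01. The same shares over all probes of the array were not computed, and all detected genes had a median deviation of 0.10 on replicate 3. The counts are therefore not shown to be particular to Rab probes. On replicate 1 the relation had the opposite sign, at r = 0.37 for the Rab probes and 0.38 for all. The correlation on replicate 3 was -0.49 with the processed signal and -0.50 after quantile normalization. The scaling to the 75th percentile cannot change such a correlation, and quantile normalization does not use base composition. The processed signal itself differs from the main one by more than a constant, with rho of -0.55 in place of -0.56. Both settings start from the same spots, and these values are therefore no check on the relation. The part of base composition in the deviation of the members was not tested.

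**Figure D5:**
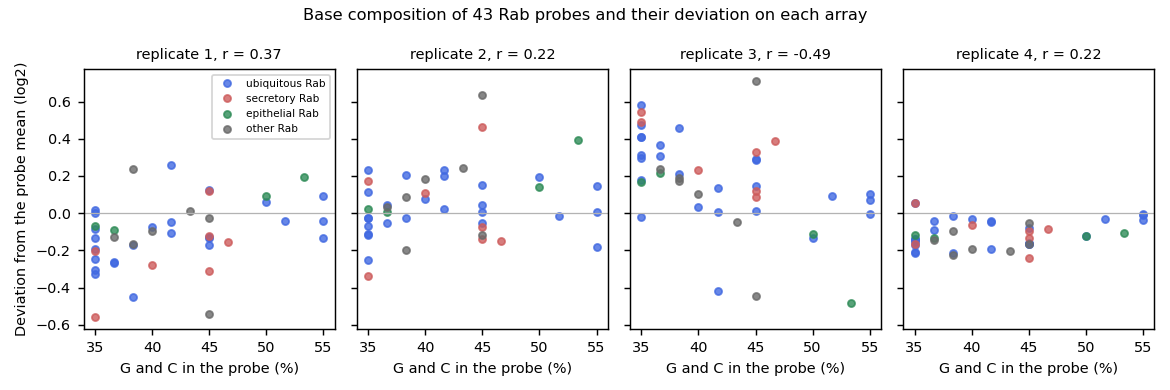
Deviation of each of 43 Rab probes from its own mean over the 4 arrays (log2) against the percentage of G and C in the probe, 1 panel per array, with Pearson's r across probes in the panel titles. On replicate 3 probes with less than 40% G and C lie above 0 in 18 of 19 cases, and r is -0.49, while on replicate 1 r is 0.37. The share of all probes of the array with so little G and C that lie above 0 was not computed.

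Genes with a pair of probes showed how far a value depends on the probe. For RAB17 the junction probe, with 53.3% G and C, deviated by 0.20, 0.39, -0.48 and -0.11 on replicates 1 to 4, and the second probe, with 35%, by -0.07, 0.02, 0.17 and -0.12. On replicate 3 the probes thus moved in opposite directions, and the small SD of the gene was a mean over both. For RAB18 both probes held 35% G and C, and on replicate 3 the probe at base 176 deviated by -0.02 and the one at base 2064 by 0.41. For RAB27B, also with 35% in both, the deviations on replicate 3 were -0.10 at base 887 and 0.55 at base 6523. In both genes the probe farther along the transcript was the higher on replicate 3. The same order held in RAB17, RAB37, RAB21 (0.13 and 0.41) and RAB1B (-0.01 and 0.10), the remaining genes with both probes measured on replicate 3. In RAB17 and RAB21 (41.7% and 35% G and C) the farther probe also held less G and C. Position and base composition cannot be told apart there. How often this order holds over all genes with a pair of probes was not computed. The part of position in the transcript was not tested. For RAB37 the probes deviated by 0.12 and 0.33 on replicate 3 and in the same direction on 3 of 4 arrays.

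Most genes of the machinery that serves the Rabs were detected, beside 52.5% of all gene names and 70.9% of the protein-coding ones. Of the endosomal and Golgi effectors 24 of 24 were detected, of the GTPase-activating proteins 28 of 30, of the exchange factors 25 of 27 and of the genes for prenylation and membrane extraction 7 of 8. Of the effectors of RAB3 and RAB27, 10 of 14 were detected (71.4%), which is near the protein-coding share. Of the rest of the Rab family 12 of 19 on the array were detected (63.2%), which is below it. The array held RAB39A under its older name and did not hold RAB40A under any name searched. The Rab family members on 0 arrays were RAB9B, RAB39A, RAB39B and RAB42. Among the effectors of the secretory Rabs, RIMS1, an active zone scaffold of synapses, and SYTL5, a synaptotagmin-like binder of RAB27A, were well above background on 0 arrays. In the remaining lists the genes on 0 arrays were DENND4A, an exchange factor for RAB10, and TBC1D30, a GTPase-activating protein.

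Effectors of the secretory Rabs differed between arrays in both directions. MYRIP, which links RAB27A to myosin, had values of 1.14, 1.75, 2.08 and 1.16 with replicate 3 highest. SYTL1 had values of 2.74, 2.89, 1.98 and 2.42, and SYTL3 of 5.24, 5.47, 4.57 and 5.05, with replicate 3 lowest in both. SYTL2, a further synaptotagmin-like RAB27 effector, spanned 1.44-fold. Among the genes for prenylation CHM, a Rab escort protein, had values of 0.28, 0.42, 1.11 and 0.36, with replicate 3 highest. RABGGTA, the alpha subunit of the geranylgeranyl transferase, had values of 2.28, 2.50, 1.71 and 1.98 with replicate 3 lowest.

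Among the effectors of the recycling and early endosomal Rabs, RAB11FIP2, which binds RAB11, had values of 2.27, 2.16, 2.95 and 2.26, and MYO5B, the myosin that moves RAB11 endosomes, spanned 2.02-fold. RBSN, an effector of RAB4 and RAB5, had values of 3.23, 3.48, 4.04 and 3.41. In these 3 genes replicate 3 was highest, as in most Rab genes, whereas MICAL1 and MICALL1, which bind RAB8 and related Rabs, were lowest there at 2.52 and 0.82. Among the regulators MADD, an exchange factor for RAB3 and RAB27, had values of 3.91, 4.30, 3.09 and 3.54, and RABGAP1 of 1.14, 1.08, 0.13 and 0.81, again with replicate 3 lowest. TBC1D8, a GTPase-activating protein, spanned 1.57-fold, with replicate 3 highest.

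The labelled cell type was checked by markers. Of 8 epithelial markers 7 were detected on all arrays, and VIL1 was well above background on 0 arrays. Of the markers of other cell types, 2 of 4 for blood cells (CD3E and 1 of 5 PTPRC probes), 2 of 5 for stroma and endothelium (COL1A1 and CDH5), 1 of 3 for melanocytes (PMEL) and 2 of 3 for neurons (RBFOX3 and SNAP25) passed the same rule. It was passed by 52.5% of all gene names and 70.9% of the protein-coding ones. Since markers of each other cell type passed too, detection alone does not settle the cell type. Of the spots on each array 55.6% to 60.4% were well above background and 0 were saturated. Outlier flags removed 514 to 725 spots on replicates 1, 2 and 4 and 2249 on replicate 3, and of the 236 Rab values they removed 6.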

How the data were processed

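Each array was deposited by the authors as a scanner file of Agilent Feature Extraction 10.7.3.1 (version per the labels), which holds linear intensity values after background subtraction by that software and before any normalization between arrays. The authors labelled 100 ng of total RNA per sample. The 4 arrays shared 1 slide and 1 scan, so neither could be examined as a batch. Nothing in the labels says whether the replicates share a culture day.

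Control spots and spots with a feature or local background outlier flag were left out, the spots of a probe were averaged, and the log2 signal minus the array median over positive probes was taken. Signals at or below 0 were left out on that array (16.0% to 18.8% of probes). The median over probes gave the gene value. A probe counted as well above background when more than 50% of its kept spots were flagged so. The median step follows the study's methods. No comparison between groups was made because the untreated samples were not analysed here, and values are given with their SD (n = 4). The number of arrays limits the precision. The spread statistics were tested on simulated data with an SD of 0.2. Dixon's rule marked 5.24% of unchanged genes and found 65% of 200 single arrays shifted by 2 log2 units. Counts of arrays apart can therefore miss such shifts. The software was Python 3.11.15, numpy 2.4.6, pandas 2.3.3, matplotlib 3.10.9, R 4.3.3 and limma 3.58.1.

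The 42 members and all gene lists were chosen with earlier results of these data known. Beside the members, the text names, of each other list, up to 5 genes well above background on 0 arrays and genes from the 5 with the largest SD. Symbols were matched to older names through a RefSeq table of GRCh38.p14, whose coordinates were not used. Probe sequences and coordinates are those of the array files. Alternatives were the processed signal scaled to its 75th percentile, normexp with an offset of 50 and quantile normalization, other detection rules, other probe filters, outlier spots kept and each array left out. Keeping spots with a local background flag alone was added after seeing the data.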

Additional observations from a re-analysis of the deposited data

Results flagged for a closer look

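In 5 of 38 detected Rab genes and in 3 further named genes, replicate 3 lay far above the other arrays relative to the range of the 4 values. Chance alone marks about 5% of groups of 4 values in this way, and of all detected genes on these arrays 8.48% were so marked. The 3 further genes are those named for a large SD. Over the genes that serve Rabs and the rest of the Rab family, 10 of 106 detected genes had 1 array apart, which was replicate 3 in 9. The normalized log2 values on replicate 3 were 8.22 for RAB1A, 3.99 for RAB1B, 7.77 for RAB10, 3.63 for RAB11A and 4.02 for RAB3A. For RAB1A the value on replicate 3 rested on 1 of 2 probes, and with the flagged spot of the other probe kept RAB1A no longer stood apart (6.24). Of the genes that serve Rabs, the replicate 3 values were 3.21 for USP6NL, a GTPase-activating protein of RAB5, 2.95 for RAB11FIP2 and 1.11 for CHM. USP6NL had values of 2.37, 2.44 and 2.39 on the other arrays. Replicate 3 was also the array on which probes with less G and C lay high, and the part of base composition in these values was not tested.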

How the results depend on the processing

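No paired analysis was possible because the untreated samples with the same replicate numbers were not analysed here. The number of detected Rab genes was 35 to 40 under every other detection rule, outlier treatment and left-out array tried. It was 20 to 22 for the ubiquitous and 8 to 10 for the secretory and epithelial members. The count of 35 came when every probe of a gene had to pass, where 43.4% of all gene names did. That of 40 came with detection on at least 1 array, where 64.5% did. All counts lay within 1.5-fold of the values reported. With 38 of 42 detected, only a large fall could have left that limit, so it is a weak check. The count of Rab genes spanning more than 1.4-fold fell from 14 to 6 after normexp and quantile normalization and was 5 to 13 with each array left out, 5 being without replicate 3. The count with 1 array apart fell from 5 to 2 with the processed signal, to 2 after normexp and quantile normalization, and to 3 with outlier spots kept or, added after seeing the data, with spots kept that had a local background flag alone. The median SD fell from 0.19 to 0.13 after normexp and quantile normalization and was 0.14 to 0.21 with each array left out, 0.14 being without replicate 3. The spans, arrays apart and median SD of all detected genes were not computed under these settings. The falls are therefore not shown to be particular to Rab genes. The normexp offset compresses low signals by its construction, and the cause of the other changes was not tested. Signals of RAB3D, RAB14, RAB27A, RAB27B and RAB30 lay near the local background, which limits what their differences between arrays show.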

Other observations

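Some genes that serve Rabs had wide spans that followed the set of probes measured on each array. GDI2, a GDP dissociation inhibitor, had gene values of 3.35, 4.85, -0.52 and 3.38, the widest span of its list. Its 3 probes were a faint one that passed on 0 arrays, one left out on replicate 3, and one measured throughout. The probe measured on all 4 arrays gave 3.35, 3.70, 3.38 and 3.38 (SD 0.16 in place of 2.30). RAB3IP, an exchange factor for RAB8, had gene values of 1.34, 0.01, 4.86 and 4.54, while its probe with a value on all 4 arrays gave 4.37, 4.74, 4.86 and 4.54 (SD 0.22 in place of 2.39). RAB19 behaved in the same way, with an SD of 0.94 for the gene and 0.09 for the probe with a value on all 4 arrays. SYTL4, an effector of RAB27, spanned 3.58-fold as a gene, while its 1 probe well above background on all 4 arrays spanned 1.36-fold.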
